A study of Mus musculus with 4 samples.

Results

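Klf and Sp genes encode transcription factors that share a set of zinc fingers at their carboxyl end and bind GC-rich DNA, the GC box and the related CACCC box. The genes described here are Klf2, Klf4, Klf6, Klf7, Klf9, Klf10, Klf13, Sp1, Sp3 and Sp4, and every probe set that the platform annotation pairs with 1 of these 10 symbols was taken. They were represented by 26 of the 22690 probe sets on the array. Of these, 23 reached a signal of 50 on average across the pools, the limit in the study's methods, and all 10 genes kept at least 1 probe set.

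The RNA came from the dentate gyrus (DG) of the hippocampus of C57Bl/6 mice, and the 4 pools were measured on 1 Affymetrix mouse array each. The ECS pool had received 11 sessions of bilateral electroconvulsive stimulation (ECS, 25 mA for 1 s) under isoflurane, given 4 times a week, and the sham pool the same handling without the shock. The fluoxetine pool had taken the selective serotonin reuptake inhibitor fluoxetine (22 mg/kg per day, 28 days) in drinking water with 0.2% saccharin, and the vehicle pool is labelled as water for 28 days. The labels give 6 h after the last session for the ECS and sham pools, whereas the study's methods name a later time. By the study's methods, fluoxetine-treated mice were used only if their mossy fiber synapse had a small frequency facilitation (n = 3) and the pool was thus chosen on that measure. The mice of a group were put together before hybridization, and no difference below has a replicate error or a p-value. In pooled tissue, fewer cells of a type and less RNA per cell cannot be told apart. All 6 listed granule cell markers found on the array passed the signal filter, among them Prox1, the fate determinant of granule cells, with signals of 112, 98.3, 154.5 and 179.7 in the sham, ECS, vehicle and fluoxetine pools.

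Several of these factors are known from neurons. Klf6 and Klf7 favor axon growth and Klf4 restrains it, while Klf9 takes part in the late maturation of adult-born granule cells. Klf10 was first described as an early gene of transforming growth factor beta (TGF-beta) signaling. Sp1 and Sp3 are present in most cells, whereas Sp4 is enriched in neurons and takes part in DG development.

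Each treated pool was divided by its own control, and the ratio was expressed as log2. A gene is called higher or lower here when its brightest probe set differed at least 1.5-fold between the pools, a log2 ratio of 0.585 or more in size. The median deposited signal past the filter differed between the arrays, with 236 in the sham, 219 in the ECS, 335 in the vehicle and 365 in the fluoxetine pool. The median log2 ratio over 7935 genes was -0.10 after ECS and 0.12 after fluoxetine. Each value is therefore also given, where it matters, after the median log2 signal of an array had been subtracted from all its values (centred ratio). The between-control spread is a scaled median absolute deviation. It was taken from the centred ratios of sham to vehicle (log2) of the 500 probe sets nearest in signal, and it is the only measure of variation between untreated pools.

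With fluoxetine, 2 of the 10 genes were higher, Klf10 and Klf6, against 8.49% of all genes, and none was lower, against 3.26%. With ECS none was higher, against 3.84% of all genes, and 1 was lower, Sp4, against 6.47%. After centring the same genes were called, and the shares of all genes were 5.82% higher and 5.13% lower after fluoxetine and 5.34% higher and 4.18% lower after ECS. No test of these counts was possible. The median log2 ratio of the 10 genes was 0.09 after ECS and 0.22 after fluoxetine, or 0.20 and 0.09 after centring, so the order of the treatments turned with the scaling.

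**Figure D1:**
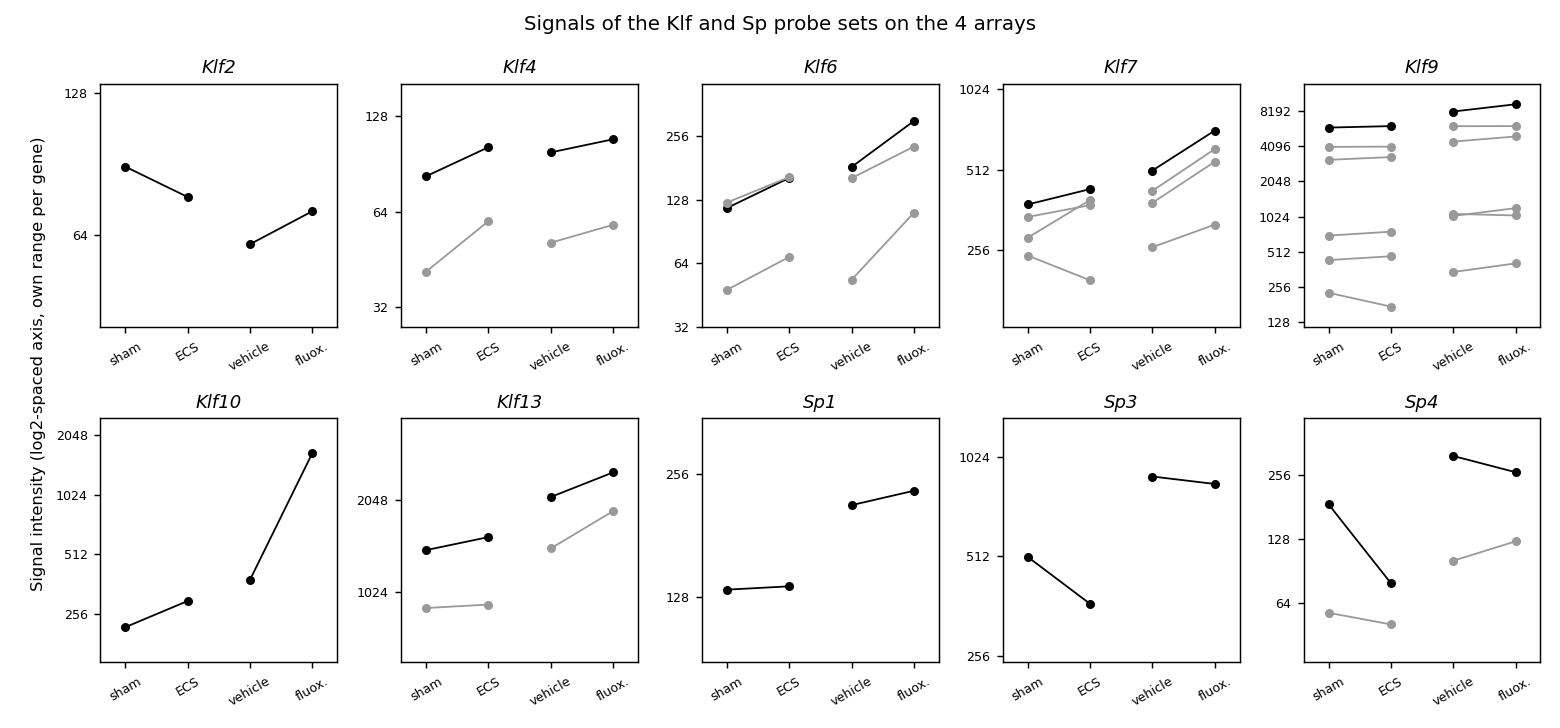
Signal intensity of each Klf and Sp probe set past the signal filter in the sham, ECS, vehicle and fluoxetine pools, 1 panel per gene with its own log2-spaced axis. Each line joins a control to its treated pool, black for the brightest probe set of the gene and gray for the others. Klf10 goes from 381 to 1663 after fluoxetine, and the brightest probe set of Sp4 from 186 to 79.5 after ECS.

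Klf10 had the largest ratio of the family. Its only probe set had signals of 219.7 in the sham pool and 298 in the ECS pool, and 381 in the vehicle pool and 1663 in the fluoxetine pool. The fluoxetine pool thus stood apart from the other pools, and the vehicle pool lay above the ECS pool before scaling. The log2 ratio was 2.13 after fluoxetine, or 4.36-fold, and 0.44 after ECS, or 1.36-fold, against a between-control spread of 0.17. After centring these were 2.00 and 0.55, and the sham pool was below the vehicle pool by 0.29 on the log2 scale. Among 7935 genes, Klf10 held rank 35 from the highest after fluoxetine and rank 482 after ECS. The ratio after fluoxetine exceeded that after ECS by 1.69, or 1.45 after centring, but with 1 array per pool this difference was not tested. Klf10 has no other probe set to set beside this value.

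Klf6, an activator related to axon growth and repair, was higher after fluoxetine and had positive ratios on all 3 probe sets in both comparisons. The brightest probe set had signals of 117 in the sham pool, 162 in the ECS pool, 182 in the vehicle pool and 300 in the fluoxetine pool. Its log2 ratios were 0.47 after ECS and 0.72 after fluoxetine at a between-control spread of 0.23. Both treated pools were above their controls by more than that spread. The other probe sets had 0.40 and 0.52 after ECS, and 0.49 and 1.05 after fluoxetine. The largest of these belonged to a dim probe set, with signals of 48.0, 68.7, 53.6 and 110.9 in the sham, ECS, vehicle and fluoxetine pools. After centring, the 3 probe sets lay between 0.51 and 0.63 after ECS and between 0.37 and 0.92 after fluoxetine. Klf6 therefore differed little between the treatments in its brightest probe set after centring, at 0.580 after ECS, just under the size for a call, and 0.59 after fluoxetine, just over it.

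Klf7, the closest relative of Klf6, was not called in either comparison. Its brightest probe set had signals of 378.5 in the sham pool, 432 in the ECS pool, 508 in the vehicle pool and 716 in the fluoxetine pool. With fluoxetine the 4 probe sets had log2 ratios of 0.28 to 0.52, all positive and all under 1.5-fold. With ECS 3 of them had 0.15 to 0.47 and 1 had -0.31. The probe set with the negative value had signals of 243.5 in the sham pool, 197 in the ECS pool, 262 in the vehicle pool and 318 in the fluoxetine pool, at a between-control spread of 0.20. The sham pool itself exceeded the vehicle pool by 0.40 on this probe set after centring, against 0.07 to 0.18 on the others. The probe sets of Klf7 thus agreed on fluoxetine and disagreed on ECS.

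Klf2 and Klf4, which are known from endothelial cells and are induced there through the kinase ERK5 and MEF2 factors, had low signals. Klf2 had 89.5 in the sham pool, 77.2 in the ECS pool, 61.3 in the vehicle pool and 72.0 in the fluoxetine pool. Its log2 ratios of -0.21 after ECS and 0.23 after fluoxetine were both smaller than the between-control spread of 0.33. The centred ratio of sham to vehicle was 1.05, so the control pools differed more from each other than either did from its treated pool. Klf4 had 82.8 and 102 in the sham and ECS pools and 98.5 and 108 in the vehicle and fluoxetine pools on its brighter probe set. The log2 ratios were 0.31 after ECS and 0.14 after fluoxetine, against a between-control spread of 0.33. The dimmer probe set had 0.53 and 0.19 at a between-control spread of 0.41, and its centred ratio after ECS of 0.64 passed the size for a call. Klf4 was thus on the same side of its control on both probe sets, without clear distance from the spread of such dim probe sets.

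Endothelial markers are given beside these genes. Of 11 on the array, 9 passed the signal filter, none of the 9 was called after ECS and 2, Kdr and Vwf, were higher after fluoxetine. After centring Vwf was called after fluoxetine and Kdr after ECS instead. Vwf had signals of 46.4 in the sham pool, 44.9 in the ECS pool, 53.7 in the vehicle pool and 145 in the fluoxetine pool. It passed the filter only through the fluoxetine pool, so its call there is not independent of the filter. Their median log2 ratio was 0.10 after ECS and 0.13 after fluoxetine. Their summed signal, with the arrays brought to a common median, was 1382 in the sham pool, 1625 in the ECS pool, 1350.1 in the vehicle pool and 1442 in the fluoxetine pool. Pecam1 and Tie1 did not pass the filter. The part of endothelial cells in the ratios of Klf2 and Klf4 was not tested.

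Klf9, a repressor induced by thyroid and corticosteroid hormones, was nearly level. Its brightest probe set had signals of 5884 in the sham pool, 6056 in the ECS pool, 8067 in the vehicle pool and 9300 in the fluoxetine pool. The log2 ratios were 0.04 after ECS and 0.21 after fluoxetine, or 0.15 and 0.08 after centring, at a between-control spread of 0.11. The 6 probe sets past the filter had log2 ratios of -0.39 to 0.11 after ECS and -0.04 to 0.24 after fluoxetine. None reached 1.5-fold, and the lowest value after ECS came from the dimmest of these 6, with signals of 229 in the sham pool and 175 in the ECS pool. One of the 6, whose name marks probes that may match transcripts of more than 1 gene, had signals of 436 in the sham pool and 470.0 in the ECS pool against 1080 and 1047 in the vehicle and fluoxetine pools. On it the sham pool was below the vehicle pool by 0.81 after centring, whereas the other 5 lay between -0.08 and 0.05. The seventh probe set, at 9.4 to 20.7, did not pass the filter.

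Klf13, a close relative of Klf9 that also acts as a repressor, had small positive ratios. Its brightest probe set had 1402 in the sham pool, 1546 in the ECS pool, 2089 in the vehicle pool and 2513 in the fluoxetine pool. The log2 ratios were 0.14 after ECS and 0.27 after fluoxetine at a between-control spread of 0.13, and the other probe set past the filter had 0.04 and 0.40. After centring all 4 of these values lay between 0.14 and 0.28. Klf13 was called in neither comparison. A probe set with signals of 4.6 to 25.2 did not pass the filter, and no ratio is read from it.

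**Figure D2:**
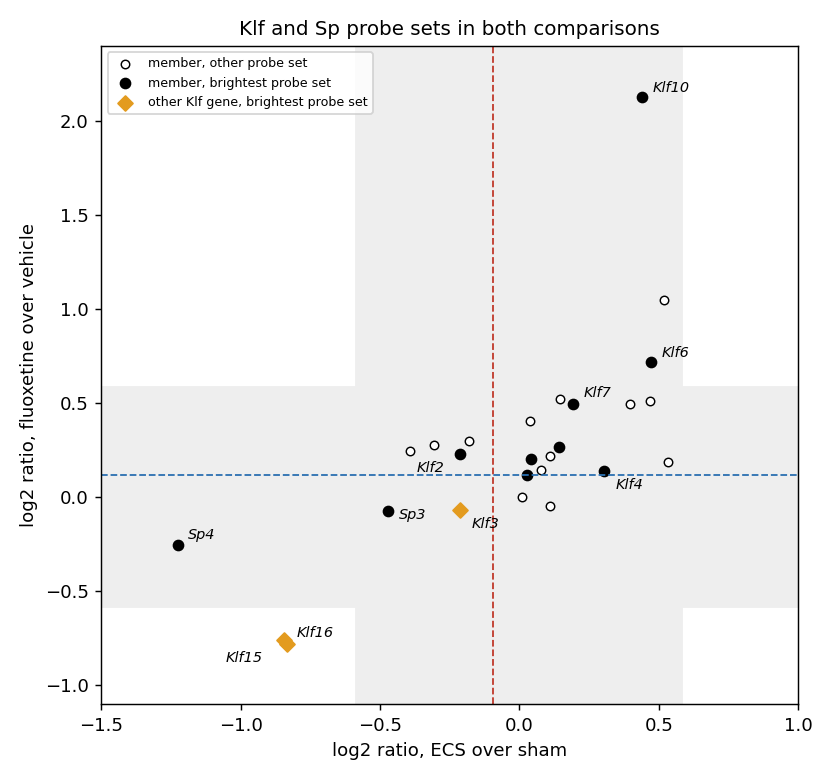
Log2 ratio of ECS over sham (horizontal) against that of fluoxetine over vehicle (vertical) for the 23 Klf and Sp probe sets past the filter and for the brightest probe sets of 3 other Klf genes. Gray bands mark ratios under 1.5-fold and dashed lines the medians of all genes (-0.10 and 0.12). Klf10 lies at 0.44 and 2.13, Sp4 at -1.23 and -0.25, and Klf15 and Klf16 lie near -0.8 in both.

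Sp4, the neuron-enriched Sp factor, was the 1 gene called lower after ECS. Its brighter probe set had signals of 186 in the sham pool and 79.5 in the ECS pool, and 313.5 in the vehicle pool and 263 in the fluoxetine pool. The ECS pool was the lowest of the 4. The log2 ratio was -1.23 after ECS, or 2.34-fold lower, and -0.25 after fluoxetine at a between-control spread of 0.22. After centring these were -1.12 and -0.38. The dimmer probe set had signals of 57.8, 51.0, 101.3 and 125 in the sham, ECS, vehicle and fluoxetine pools, with log2 ratios of -0.18 and 0.30 at a between-control spread of 0.33. The size of the decrease after ECS thus rests on 1 probe set, and the other was within the between-control spread after ECS and had the opposite sign after fluoxetine. By the brighter probe set, Sp4 held rank 56 from the lowest of 7935 genes after ECS and rank 915 after fluoxetine.

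Sp3, which competes with Sp1 for the GC box, had 1 probe set, with signals of 510.2 in the sham pool, 368 in the ECS pool, 894 in the vehicle pool and 849 in the fluoxetine pool. The log2 ratio was -0.47 after ECS and -0.07 after fluoxetine at a between-control spread of 0.15, or -0.36 and -0.20 after centring. It was thus below its control by more than the spread after ECS and not called. The centred ratio of sham to vehicle was -0.31, so the control pools also differed by more than that spread on this probe set. Sp1, the first described factor of the family, had signals of 134 in the sham pool, 136 in the ECS pool, 214.5 in the vehicle pool and 232.5 in the fluoxetine pool. Its log2 ratios were 0.03 and 0.12 at a between-control spread of 0.23, both within that spread. Its second probe set, with signals of 10.1 to 25.2, did not pass the filter. The 3 Sp genes had log2 ratios of -1.23, -0.47 and 0.03 after ECS, which is a description of 3 probe sets and not a test of the Sp group.

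Over the family, 6 genes had more than 1 probe set past the filter. The probe sets of 4 of them had 1 sign after ECS (Klf4, Klf6, Klf13 and Sp4), and those of 4 had 1 sign after fluoxetine (Klf4, Klf6, Klf7 and Klf13). In 3 of the 6, Klf4, Klf6 and Klf13, the sign was shared within each comparison. Some of these signs belong to values near 0. The centred ratios of Klf4 after fluoxetine were 0.01 and 0.06, and 1 of those of Sp4 after ECS was -0.07, all within the between-control spread. The share of all genes whose probe sets have 1 sign is not given, so these counts have no background. Klf10, Klf2, Sp1 and Sp3 were measured by 1 probe set each past the filter. Probe sets of a gene share the RNA and the array, and their agreement says nothing of variation between mice.

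**Figure D3:**
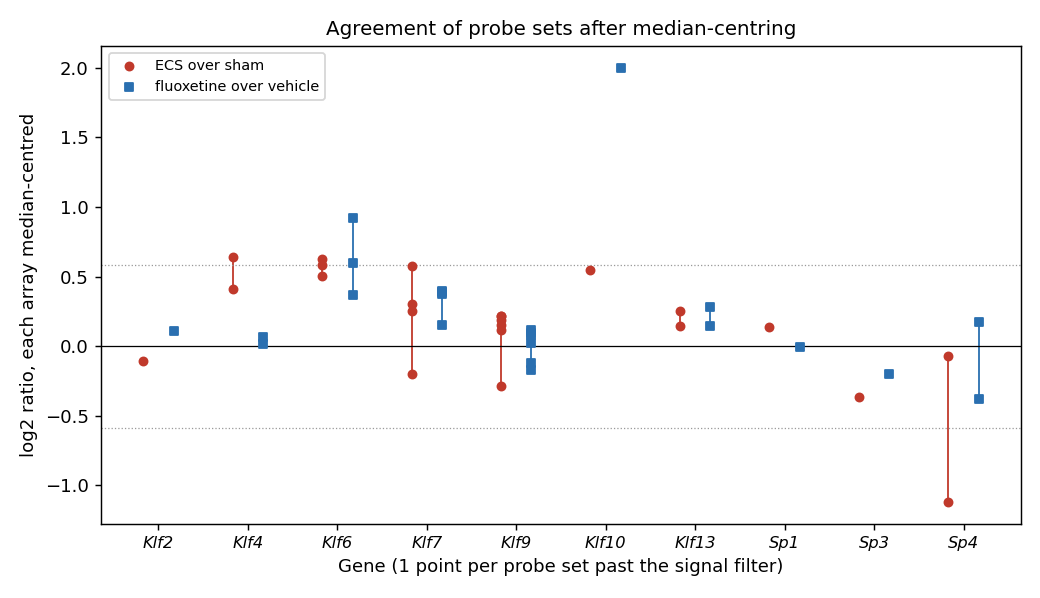
Centred log2 ratios of each Klf and Sp probe set past the filter, with red circles for ECS over sham and blue squares for fluoxetine over vehicle. Lines join the lowest and highest probe set of a gene and dotted lines mark 1.5-fold. The 3 probe sets of Klf6 are above 0 in both comparisons, whereas those of Sp4 lie at -1.12 and -0.07 after ECS.

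Promoters of the family were looked at for the DNA motif that the family binds. RefSeq promoter windows (build GRCm38.p6, 250 bases before to 50 after the start of the gene) were found for 9 of the 10 genes and not for Klf10. Where a gene had several windows the first was used. The GC box, searched as GGGCGG on both strands, was present in 8 of the 9 windows, all but that of Klf9. It was present in 35.9% of 27025 windows of all genes, in 67.6% of 6480 windows of genes past the signal filter, and in 76.7% of 9314 windows with a GC share of at least 58%, a limit set by the lowest of the 9. TGACG, the core of the cAMP response element, was present in 6 of the 9 windows, against 21% of all, and the full element TGACGTCA, which holds that core, in none, against 1.88% of all. The windows of all genes had a median GC share of 52.7%, below that of each of the 9. For TGACG and the motifs that follow, the share among windows of like GC share was not computed, and an excess was not tested. On either strand, CACCC was present in 6 (56.7% of all), the AP-1 motif TGANTCA in 1 (7.93%), and the CArG box of serum response factor (1.57%) and TATAAA (14.2%) in none. The 250 bases before the start are shown for Klf6, which was higher after fluoxetine, and for Sp4 and Sp3, which had the lowest ratios after ECS. They are written 5′ to 3′ on the strand of the gene, with GC boxes of either strand in capitals. The windows are chr13:5861239-5861488 on the plus strand for Klf6, chr12:118301441-118301690 on the minus strand for Sp4 and chr2:72980447-72980696 on the minus strand for Sp3.
Klf6: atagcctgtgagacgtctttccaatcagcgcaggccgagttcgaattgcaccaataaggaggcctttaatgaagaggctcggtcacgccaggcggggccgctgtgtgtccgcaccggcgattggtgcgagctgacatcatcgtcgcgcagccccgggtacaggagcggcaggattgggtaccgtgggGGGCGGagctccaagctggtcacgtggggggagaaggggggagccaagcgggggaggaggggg
Sp4: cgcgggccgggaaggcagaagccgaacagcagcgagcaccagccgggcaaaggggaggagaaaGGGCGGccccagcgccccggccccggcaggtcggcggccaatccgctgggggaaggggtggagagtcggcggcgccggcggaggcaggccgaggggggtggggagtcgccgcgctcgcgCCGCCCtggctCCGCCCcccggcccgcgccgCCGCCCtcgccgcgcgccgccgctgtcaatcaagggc
Sp3: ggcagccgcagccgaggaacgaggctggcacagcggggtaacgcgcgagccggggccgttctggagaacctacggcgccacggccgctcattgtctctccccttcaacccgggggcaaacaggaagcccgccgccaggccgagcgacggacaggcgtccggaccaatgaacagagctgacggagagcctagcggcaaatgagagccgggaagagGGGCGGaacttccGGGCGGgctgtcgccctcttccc
Klf6 had 1 GC box before its start, Sp4 had 4 and Sp3 had 2, and a match in these letters is not evidence of a bound site. The second window of Sp3, which is not shown, had 5 before its start.

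Of 16 further Klf and Sp genes, 10 were on the array and 3, Klf3, Klf15 and Klf16, passed the signal filter. Klf15 and Klf16 were lower with both treatments. Klf16, a repressor of the Klf9 subgroup, had signals of 271 in the sham pool and 151 in the ECS pool, and 529 in the vehicle pool and 312.5 in the fluoxetine pool. Its log2 ratios were -0.84 and -0.76 at a between-control spread of 0.19, or -0.73 and -0.88 after centring, with the sham pool below the vehicle pool by 0.46. Klf15, a corticosteroid-induced factor, had 66.2 in the sham pool and 37.1 in the ECS pool, and 110.4 in the vehicle pool and 64.3 in the fluoxetine pool. Its log2 ratios were -0.84 and -0.78 at a between-control spread of 0.35, and with signals below 50 taken as 50 the value after ECS was -0.40, under the size for a call. Each of these genes has 1 probe set. Klf3 had -0.21 after ECS and -0.07 after fluoxetine on its brightest probe set. Its other probe sets had -0.26 and 0.05 after ECS and -0.56 and -0.64 after fluoxetine. After centring the latter values were -0.68 and -0.76, both past the size for a call, against -0.19 on the brightest probe set. The probe sets of Klf3 thus disagreed on the size. The other 7 genes, Klf1, Klf5, Klf12, Klf17, Sp5, Sp6 and Sp7, had mean signals below 50.

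Genes upstream of single members were read from their brightest probe set. Of 10 genes of the TGF-beta route, which induces Klf10, 7 passed the filter. With ECS 3 of these were higher and 1 was lower. With fluoxetine 2 were higher and 1 was lower. Tgfbr2, the type 2 receptor, had signals of 144 in the sham pool and 224 in the ECS pool, and 198 in the vehicle pool and 584 in the fluoxetine pool. Its log2 ratios of 0.64 and 1.56 were in the same order as those of Klf10. Tgfb3, a ligand, had signals of 30.7 in the sham pool and 70.3 in the ECS pool, and 47.7 in the vehicle pool and 389 in the fluoxetine pool, with log2 ratios of 1.195 and 3.03. Both of its control signals were below 50, and the size of these ratios is uncertain. Tgfb3 passed the filter only through the fluoxetine pool, so its place among the higher genes in both counts is not independent of the filter. Tgfb2, another ligand, had -0.39 and -0.70, and its other probe sets -0.42 and -0.46 after ECS and -0.69 and -0.65 after fluoxetine. Tgfbr1, the type 1 receptor, had -0.97 and -0.32, and Smad7, the inhibitory Smad, 0.64 and 0.33. The route thus did not move in 1 direction.

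Of 9 hormone receptors and coactivators upstream of Klf9, 5 passed the filter, and 1 was lower after ECS and none was called after fluoxetine. After centring Thra and Rxra were lower after fluoxetine as well. The other probe set of Rxra had -0.59 after fluoxetine, or -0.71 after centring, and 0.73 after ECS, where the brightest had -0.45. Nr3c1, the glucocorticoid receptor, had signals of 701 in the sham pool and 366 in the ECS pool, and 1016 in the vehicle pool and 743 in the fluoxetine pool. Its log2 ratios were -0.94 and -0.45 at a between-control spread of 0.15, and its other probe set had -1.02 and -0.51. The median over the 5 was -0.45 with each treatment, next to values of Klf9 near 0. Once centred, the median over the 5 was -0.34 after ECS and -0.58 after fluoxetine. Of 8 genes of the ERK5 and MEF2 route upstream of Klf2 and Klf4, 6 passed the filter and none was called in either comparison by its brightest probe set. Map2k5, the kinase that activates ERK5, was at -0.58 after ECS and -0.27 after fluoxetine, and Map3k3, the kinase before it, at -0.25 and -0.45, or -0.14 and -0.57 after centring. Another probe set of each passed the size for a call after ECS, with -0.68 for Map2k5 (-0.57 after centring) and -0.74 for Map3k3 (-0.63 after centring).

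**Figure D4:**
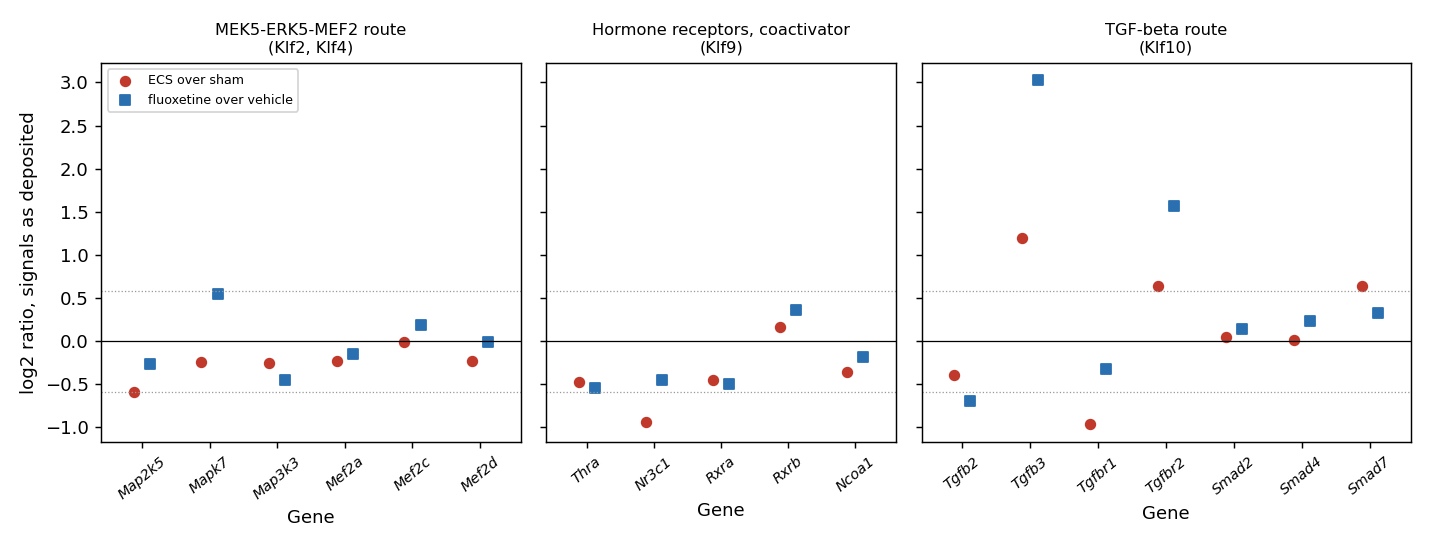
Log2 ratios of genes upstream of Klf2 and Klf4, of Klf9 and of Klf10, 1 gene per position, with red circles for ECS over sham and blue squares for fluoxetine over vehicle. Points give the brightest probe set, and dotted lines mark 1.5-fold. Tgfb3, with both control signals below 50, reaches 3.03 and Tgfbr2 1.56 after fluoxetine, while Nr3c1 is at -0.94 after ECS.

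Among 16 genes past the filter that are described elsewhere as Klf or Sp targets, none was lower, 3 were higher after ECS and 2 were higher after fluoxetine. Cdkn1a, the cell cycle inhibitor p21, had signals of 74.6 in the sham pool and 215 in the ECS pool, and 57.7 in the vehicle pool and 220.5 in the fluoxetine pool. Its log2 ratios were 1.53 and 1.93, and its other probe set had 1.54 and 1.89. The others were Thbd after fluoxetine, at 0.88, and Smad7, which is also in the TGF-beta list, and Tubb3, a tubulin of neurons, after ECS, at 0.64 and 0.62. Thbd had low signals, 93.7 and 68.5 in the sham and ECS pools and 75.3 and 138.6 in the vehicle and fluoxetine pools. Its ratio after ECS was -0.45. Its centred ratio of sham to vehicle, 0.82, was larger than its centred ratio after fluoxetine, 0.76. After centring 4 were higher after ECS, with Gap43 added at 0.65. Before centring Gap43 had 0.54 after ECS and 0.56 after fluoxetine, both under the size for a call. The medians of the list were -0.003 and 0.21, near the medians over all genes. Of 16 proteins that bind Klf or Sp factors, none was called after ECS and 1, Sap30, a corepressor subunit, was higher after fluoxetine, at 0.60, but not after centring.

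Immediate early genes, to which the inducible Klf factors are often compared, had a larger median after ECS than after fluoxetine. Of 15 past the filter, 12 were higher after ECS, with a median log2 ratio of 2.77. With fluoxetine 9 were higher (8 after centring) and 1 was lower, with a median of 0.87. Klf10 had the opposite order, with 0.44 and 2.13. The same order as in Klf10 was seen on the brightest probe sets of Homer1, at -0.13 and 0.87, and Egr3, at 0.12 and 0.37. For Homer1 the signals of 34.7 in the sham pool and 31.7 in the ECS pool were both below 50. Egr3 had 0.23 after ECS and 0.24 after fluoxetine once centred, so its order came with the scaling. Its deposited and centred ratios were within its between-control spread of 0.38. In the study's own list of genes, another probe set of Homer1 had the larger value after ECS. Glucocorticoid-induced genes had medians of 0.20 and 0.22 over 12 genes, and 4 were higher after ECS and 1 higher and 1 lower after fluoxetine.

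The genes nearest to Klf10 in the ratios after ECS, after fluoxetine and of sham to vehicle were Pmepa1, an inhibitor of TGF-beta signaling, at 0.54 after ECS and 2.11 after fluoxetine, Vim, the intermediate filament vimentin of glia and immature cells, at 0.79 and 2.10, and Fam43a at 0.86 and 1.97. Their distances from Klf10 were 0.11, 0.41 and 0.45 log2 units over these 3 ratios. Other probe sets of Pmepa1 had 0.74 and 1.25 after ECS and 2.48 and 4.03 after fluoxetine, and those of Vim 1.36 and 0.99 after ECS and 2.27 and 2.17 after fluoxetine, so that the nearness to Klf10 after ECS depends on the probe set. The Pmepa1 probe set with 1.25 and 4.03 had signals of 31.9, 76, 32.3 and 526.7 in the sham, ECS, vehicle and fluoxetine pools. Both of its controls were below 50, it passed the filter only through the fluoxetine pool, and the size of its ratios is uncertain. Those nearest to Sp4 were Efcab2, at -1.17 and -0.40, Nup54, a nuclear pore protein, at -1.07 and -0.18, and Cd83, an immune surface protein, at -1.25 and -0.31, at distances of 0.16, 0.23 and 0.24. Efcab2 had signals of 63.1 in the sham pool and 28 in the ECS pool, the latter below 50, so the size of its ratio after ECS is uncertain. The other probe set of Nup54 had -0.29 after ECS. With 4 arrays, such likeness rests on 3 ratios.

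Some markers of other cells differed between the treated pools and their controls. Of 9 astrocyte markers 2 were higher after fluoxetine, Gfap at 2.43 and Aqp4 at 0.86. With ECS 1 was higher, again Gfap, at 2.24, and 1, Slc1a3, was lower, at -0.64. After centring the brightest probe set of Slc1a3 had -0.53, under the size for a call. Its other probe sets had -0.83 and -0.46 after ECS, or -0.72 and -0.35 after centring, so that 1 of them still passed that size. After centring Gfap had 2.35 after ECS and 2.30 after fluoxetine. Of 9 microglia markers past the filter, 3 were higher after fluoxetine, the complement genes C1qa, C1qb and C1qc (2 after centring), and 1, P2ry12, was lower after ECS at -0.60 (none after centring). The summed astrocyte signal at a common median was 17674 in the sham pool, 18024 in the ECS pool, 17041 in the vehicle pool and 18098 in the fluoxetine pool. That of microglia was 6219, 6017, 5927 and 7415 in the same order. Of 6 markers of granule cells, 5 were at least 1.5-fold lower in each treated pool (3 in the ECS pool after centring), and their summed signal was 8981 in the sham pool, 4509 in the ECS pool, 9349 in the vehicle pool and 2859 in the fluoxetine pool. No marker on the array was at 0 on every probe set. The part of these cells in the ratios of Klf10, Klf6 and Sp4 was not tested.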

How the data were processed

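Dentate gyrus RNA pools of sham, ECS, vehicle and fluoxetine groups were hybridized by the authors to 1 Affymetrix GeneChip mouse genome array each, after amplification of 100 ng of total RNA. The deposited values are linear signal intensities, which the authors computed with the MAS 5 statistical algorithm (the submitters' processing notes). The scaling target, probe-level values and detection calls were not used here. Groups came from the sample titles.

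From these intensities, log2 ratios were computed with Python 3.11.15, numpy 2.4.6 and pandas 2.3.3, and figures with matplotlib 3.10.9. The 64 control probe sets were left out, and of the other 22626, 20380 carry 1 gene symbol in the platform annotation, 691 several and 1555 none. The symbols of all 26 Klf and Sp probe sets equal the RefSeq symbols of the same gene identifiers. With a mean signal of at least 50, 13422 probe sets and 7935 genes remained. A gene was called at 1.5-fold by its brightest probe set. The steps were tested on simulated data. With 1 array per group no test was run, and the number of arrays limits the precision.

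Members and gene lists were chosen with earlier results of these data known. Named are all probe sets of the 10 genes, the other Klf and Sp genes, up to 4 genes with the largest mean change of each of 15 other lists, and the 3 genes nearest to each of the 2 members with the largest ratios; genes named beyond that were chosen after their values were seen. Alternatives were the array scale, the treatment of low signals, the signal filter, the probe set of a gene, the control array and the size of a change. Lists of CA1 and CA3 pyramidal cells, interneurons and oligodendrocytes were also counted.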

Additional observations from a re-analysis of the deposited data

Results flagged for a closer look

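One probe set of Klf7 had ratios of opposite sign in the comparisons, -0.31 after ECS and 0.28 after fluoxetine, and -0.20 and 0.16 after centring. The other 3 probe sets of the gene were positive in both. The difference between the treatments was not tested.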

How the results depend on the processing

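The count of 2 genes higher after fluoxetine was 1 with a mean signal of at least 200, 1 when every probe set of the gene had to pass, 1 at 2-fold (each time Klf10) and 4 at 1.2-fold (with Klf7 and Klf13). The count of 0 higher after ECS was 3 at 1.2-fold (Klf4, Klf6 and Klf10) and 2 with median-centring and the control arrays exchanged together (Klf2 and Klf4; centring alone gave 0). The 1 gene lower after ECS became 0 when every probe set had to pass, since the second probe set of Sp4 did not, and 2 at 1.2-fold and with centring and exchange together (with Sp3). The count of 0 lower after fluoxetine was 1 with centring and exchange together (Klf2). The other alternatives left each count, and the 3 genes with 1 sign per comparison, within 1.5 times. No called ratio changed sign. Of 46 ratios of members, 5 moved by more than the between-control spread after median-centring, 4 with quantile normalization and 22 with centring and exchange together. Set against the centred ratios instead, a comparison added after seeing the data, the exchange moved 14 of the 46. No paired analysis was possible because each group has 1 array. No array could be left out for the same reason.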

Other observations

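Of 8 oligodendrocyte markers none was called in either comparison. Of 4 pyramidal cell markers of CA1 and CA3, 1, Pou3f1, a transcription factor, was lower with both treatments, at -1.23 and -1.42, with signals of 44.9 in the sham pool, 19.2 in the ECS pool, 104.4 in the vehicle pool and 38.9 in the fluoxetine pool. Both signals of the ECS comparison were below 50, so that no difference is left there when such signals are taken as 50. Of 8 interneuron markers, 2 were higher after ECS and 3 after fluoxetine. The largest change was that of Npy, the neuropeptide Y gene, with signals of 757 in the sham pool and 4978 in the ECS pool, and 870.0 in the vehicle pool and 7522 in the fluoxetine pool, or log2 ratios of 2.72 and 3.11. The other gene higher with both treatments was Gad2, a GABA-synthesizing enzyme, at 0.73 and 0.97, and Vip, a neuropeptide, was higher after fluoxetine, at 0.93.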
